A study of Mus musculus with 11 samples.

Results

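Cytokine receptor chains of T cells were examined as 10 genes, *Il2rg*, *Il2rb*, *Il7r*, *Il4ra*, *Il21r*, *Il15ra*, *Il6st*, *Il6ra*, *Il27ra* and *Il10ra*, chosen by symbol from the 35814 gene symbols of the count table. The RNA came from CD4+ T cells of kidneys on day 2 after ischemia–reperfusion injury (IRI), in which both renal pedicles of male C57BL/6 mice aged 8 to 12 weeks were clamped for 45 min. There were 3 libraries from CD4cre mice (genotype given as WT), 5 labelled CD4IKK1Δ (IKK1 knockout) and 3 labelled CD4NIKΔ (NIK knockout), 1 library per sample, and all received IRI. Mice of all 3 groups carry a Cre recombinase driven by the CD4 promoter, which is also active in thymocytes before the CD4 and CD8 lineages part, so that the deletion is not limited to CD4+ T cells. CD4IKK1Δ mice have a floxed *Chuk* gene, which encodes the kinase IKK1, and CD4NIKΔ mice a floxed *Map3k14* gene, which encodes the NFκB-inducing kinase NIK. The cells were enriched with magnetic beads, sorted by FACS, and their RNA was amplified before sequencing.

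Cytokine receptors of this class have no kinase activity of their own and signal through JAK kinases bound to their intracellular part, which phosphorylate STAT transcription factors. The common γ chain, encoded by *Il2rg*, is shared by the receptors for IL-2, IL-4, IL-7, IL-9, IL-15 and IL-21 and pairs with a chain that is specific for the cytokine, whereas gp130, encoded by *Il6st*, is shared by the receptors for IL-6, IL-27 and several other cytokines. In T cells, IL-7 and IL-15 maintain naive and memory cells, IL-2 drives the expansion of activated cells, IL-6 and IL-21 take part in the differentiation of Th17 and follicular helper cells, and IL-10 and IL-27 can restrain effector responses.

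Sequence upstream of the start site is shown for *Il2rg*, *Il7r* and *Il21r*, 3 chains of the γ chain family that were called lower in CD4IKK1Δ than in CD4NIKΔ libraries. The sequences are from RefSeq (GRCm38.p6), run 5′ to 3′ on the strand of the gene and end at the base before the start site. The window of *Il7r* is cut to the 164 bases nearest to the start, because the rest overlaps the first exon of *Il7r* itself in 1 of its 4 GENCODE transcripts. The stretch shown, with its GAS match, is upstream of the other 3 starts but within the first intron of that transcript. The windows of *Il4ra*, *Il15ra*, *Il6st* and *Il6ra* overlap annotated exons in whole or in part and are not shown. Cut in the same way, 1 window of *Il15ra* leaves 133 bases free of exons, which hold none of the letters searched and are not shown either. Capitals mark matches, on either strand, to TTCNNNGAA (GAS, the element that STAT dimers recognise), TGTGGT (RUNX) or CCGGAA (ETS).
Il2rg: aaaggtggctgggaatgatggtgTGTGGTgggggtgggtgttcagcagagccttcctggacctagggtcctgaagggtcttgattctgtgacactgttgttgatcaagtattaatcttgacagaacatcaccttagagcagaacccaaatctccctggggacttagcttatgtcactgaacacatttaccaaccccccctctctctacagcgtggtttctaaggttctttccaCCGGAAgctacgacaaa
Il7r: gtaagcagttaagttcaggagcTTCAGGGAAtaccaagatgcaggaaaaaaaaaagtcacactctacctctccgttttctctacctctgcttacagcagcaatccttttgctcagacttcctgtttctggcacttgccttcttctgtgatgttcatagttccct
Il21r: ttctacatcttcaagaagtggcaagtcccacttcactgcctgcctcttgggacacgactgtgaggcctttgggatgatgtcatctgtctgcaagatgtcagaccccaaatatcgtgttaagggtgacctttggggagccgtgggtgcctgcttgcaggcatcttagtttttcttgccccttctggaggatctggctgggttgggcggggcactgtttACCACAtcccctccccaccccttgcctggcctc
The *Il2rg* window is chrX:101268256-101268505 on the minus strand, that of *Il7r* is chr15:9529877-9530040 on the minus strand and that of *Il21r* is chr7:125603179-125603428 on the plus strand. *Il2rg* holds the RUNX letters 227 to 222 bases and the ETS letters 17 to 12 bases before the start, *Il21r* holds the RUNX letters 33 to 28 bases before it, and *Il7r* holds a GAS match, TTCAGGGAA, 142 to 134 bases before it. Among 32851 promoter windows of 250 bases in the table, 14.05% held the RUNX letters, 12.03% the ETS letters and 7.02% a GAS match. Of the members, 7 had a window in the table. The 250 bases before the start of *Il6st* held the ETS letters 2 times and 1 of the windows of *Il15ra* held them 1 time, whereas those of *Il4ra* and *Il6ra* held none of the letters searched, and no window of a member held a match to the IRF or the κB consensus, which 2.977% and 3.899% of all windows held. A missing match says only that these letters are not in the window.

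The members lie on 8 chromosomes of GRCm39. *Il2rg* is on chromosome X from 100307984 to 100311861, *Il7r* and *Il2rb* are on chromosome 15 from 9505874 to 9530262 and from 78363456 to 78395566, *Il15ra* is on chromosome 2 from 11710101 to 11739128, *Il6ra* on chromosome 3 from 89771366 to 89820719, *Il27ra* on chromosome 8 from 84756916 to 84769253, *Il10ra* on chromosome 9 from 45165132 to 45180563 and *Il6st* on chromosome 13 from 112600604 to 112646620. *Il4ra* (125151079 to 125182844) and *Il21r* (125202601 to 125232756) are neighbours on the plus strand of chromosome 7, with 19756 bases between them.

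The libraries held between 15751632 and 25737046 estimated counts each, of which 3 counts, used as the floor, correspond to between 0.117 and 0.190 CPM by library size alone. Levels are given in CPM throughout, for which each count is divided by the size of its library after scaling by its TMM factor, and a gene was called at or under the floor by its counts. Neither targeted gene differed past the test in the libraries labelled for its deletion, which are named by their labels throughout. *Chuk* had 20.4 ± 4.55 CPM (SD, n = 5) in CD4IKK1Δ against 22.0 ± 9.67 (SD, n = 3) in CD4cre libraries (log2 fold change −0.11, FDR 0.921), and *Map3k14* had 22.5 ± 8.98 CPM (SD, n = 3) in CD4NIKΔ against 17.9 ± 2.78 (SD, n = 3) in CD4cre libraries (0.30, FDR 0.575). *Map3k14* was instead lower in CD4IKK1Δ than in CD4NIKΔ libraries (−1.91, FDR 0.00418). Such counts are summed over all transcripts and do not resolve the floxed exons. Transcripts of 15 Pan T markers (such as the CD3 chains, *Cd2*, *Cd5*, *Lck*, *Zap70* and the T cell receptor constant regions) summed to between 1600 and 3063 CPM in CD4cre, 15.2 and 1374 CPM in CD4IKK1Δ, and 8259 and 12320 CPM in CD4NIKΔ libraries. *Cd4* itself ran from 51.1 to 78.5, from 2.05 to 69.1 and from 315 to 382 CPM. CD4IKK1Δ replicates 1 and 2 stood apart with 41 and 868 counts of the T cell receptor constant regions, against at least 5277 in every other library. Summed levels of 6 neuronal markers (*Snap25*, *Syt1*, *Rbfox3*, *Tubb3*, *Nefl* and *Map2*), of which none was at the floor, ran the opposite way, from 1407 to 1755 CPM in CD4cre, 1795 to 2158 in CD4IKK1Δ and 454 to 1014 in CD4NIKΔ. Levels of 12 myeloid markers ranged from 439 to 1842, from 97.8 to 257 and from 629 to 958 CPM, with *Itgam* and *S100a9*, *Adgre1*, and *S100a8* and *S100a9* at the floor in all libraries of the respective group. B cell markers summed to at most 25.0 CPM in any library. Levels of 4 NK cell markers (*Ncr1*, *Klrb1c*, *Klrd1* and *Klrk1*) ran from 18.5 to 51.7 CPM in CD4cre, 1.79 to 13.3 in CD4IKK1Δ and 75.6 to 156 in CD4NIKΔ libraries, with *Ncr1* at the floor in all CD4cre and CD4IKK1Δ libraries. Of the 3 tested, 2 were called higher in CD4NIKΔ than in CD4cre, beside 10.4% of all genes, and 3 lower in CD4IKK1Δ than in CD4NIKΔ libraries, beside 18.5%. NK cells are known to express *Il2rb* and *Il2rg* as well. The 2 CD8 chains summed to 3.16 to 16.6, 0.0524 to 2.92 and 13.6 to 25.7 CPM, and kidney tubule markers to 16.8 to 73.8, 3.14 to 8.81 and 15.1 to 96.5 CPM. In these bulk samples, fewer T cells and less RNA per T cell cannot be told apart, and the part of the other cell types' transcripts in the results below was not tested.

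All 10 chains passed edgeR's expression filter in the 3 comparisons. In CD4NIKΔ libraries 4 chains rose against CD4cre, *Il27ra* by the most (12.8-fold), then *Il2rg* (8.06-fold), *Il21r* (4.84-fold) and *Il2rb* (3.22-fold), and none fell, where 10.4% of all genes tested were called higher. In CD4IKK1Δ libraries 9 of the 10 fitted differences from CD4cre were below 0, beside 48.7% of all genes and 15 of 15 Pan T markers. None of the 10 passed the test (0 of 10 at an FDR under 0.05, 5 of 10 lower at an unadjusted p under 0.05, beside 8.91% of all genes). Between CD4IKK1Δ and CD4NIKΔ libraries, 8 chains were called lower in CD4IKK1Δ, beside 18.5% of all genes, all 6 of the γ chain family among them, and *Il6st* and *Il10ra* were not. Differences were called at an FDR under 0.05 and more than 2-fold, from edgeR's quasi-likelihood test with Benjamini-Hochberg adjustment over all genes tested, and each is given as a log2 fold change of TMM-normalized counts with its standard error (SE). Both comparisons with CD4cre share its 3 libraries.

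**Figure D1:**
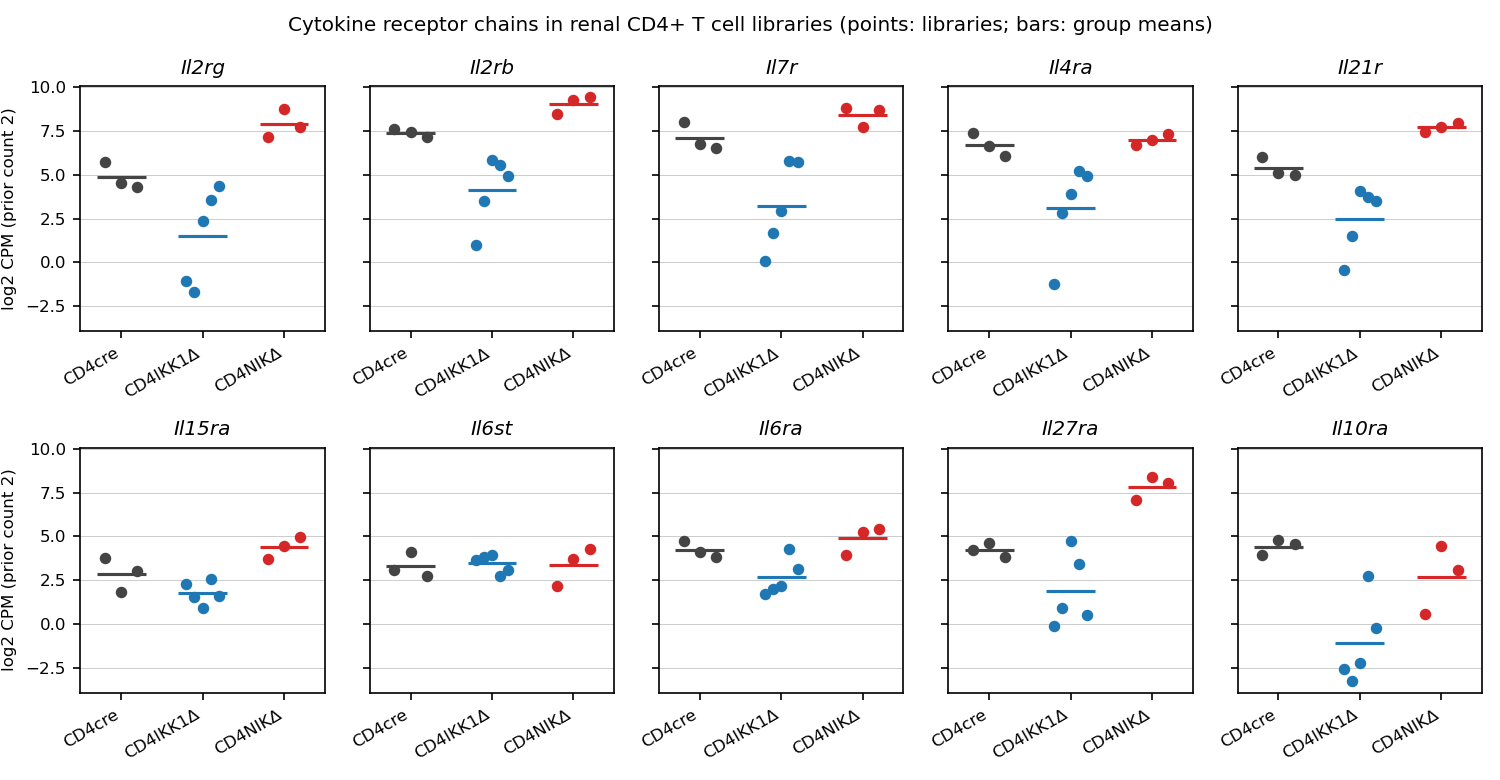
Level of each receptor chain in every library, as log2 CPM with a prior count of 2, with points for libraries and bars for the group means of 3 CD4cre, 5 CD4IKK1Δ and 3 CD4NIKΔ libraries. *Il2rg*, *Il2rb*, *Il21r* and *Il27ra* are above all CD4cre libraries in every CD4NIKΔ library, the CD4IKK1Δ libraries spread widely, and the groups overlap for *Il6st*.

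The shared chain *Il2rg* had 53.8, 22.8 and 20.0 CPM in the CD4cre libraries (replicates in order), 0.384, 0.210, 4.99, 11.96 and 20.8 CPM in the CD4IKK1Δ libraries, and 142, 433 and 216 CPM in the CD4NIKΔ libraries. All CD4NIKΔ libraries lay above all others, whereas CD4IKK1Δ replicate 5 was within the range of CD4cre. The difference from CD4cre was 3.01 (SE 0.51, FDR 0.00960) in CD4NIKΔ and −2.06 (SE 1.22, FDR 0.457) in CD4IKK1Δ libraries, with a 95% interval from −4.90 to 0.78 for the latter. Between CD4IKK1Δ and CD4NIKΔ it was −5.09 (SE 1.17, FDR 0.00664). Single libraries moved these values, to −2.87 without CD4IKK1Δ replicate 5 and −1.47 without CD4cre replicate 1 for CD4IKK1Δ against CD4cre, and to −5.90 without CD4IKK1Δ replicate 5 between the deletions.

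*Il2rb*, the signalling β chain of the receptors for IL-2 and IL-15, had 195, 175 and 144 CPM in CD4cre, 1.86, 11.5, 58.3, 47.1 and 30.1 CPM in CD4IKK1Δ and 357, 624 and 699 CPM in CD4NIKΔ libraries. The 3 groups did not overlap, with CD4IKK1Δ lowest and CD4NIKΔ highest. Its log2 fold change against CD4cre was 1.69 (SE 0.27, FDR 0.00797) in CD4NIKΔ and −2.52 (SE 0.88, FDR 0.237) in CD4IKK1Δ libraries, and −4.23 (SE 0.81, FDR 0.00258) between the 2 deletions. *Il15ra*, which binds IL-15 and presents it to neighbouring cells, had 13.7, 3.40 and 8.11 CPM in CD4cre, 4.80, 2.78, 1.76, 5.91 and 2.92 CPM in CD4IKK1Δ and 12.8, 21.5 and 31.9 CPM in CD4NIKΔ libraries. Here both deletions overlapped with CD4cre but not with each other. Neither difference of *Il15ra* from CD4cre was called (1.37, SE 0.54, FDR 0.104 for CD4NIKΔ and −1.21, SE 0.58, FDR 0.325 for CD4IKK1Δ), while the difference between the deletions was (−2.59, SE 0.51, FDR 0.00162).

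*Il7r*, the specific chain of the IL-7 receptor and a mark of naive and memory T cells, had 263, 108 and 94.9 CPM in CD4cre, 0.960, 3.09, 7.66, 56.0 and 52.4 CPM in CD4IKK1Δ and 449, 218 and 416 CPM in CD4NIKΔ libraries. All CD4IKK1Δ libraries were below all others, and CD4cre replicate 1 lay within the range of CD4NIKΔ. *Il7r* differed from CD4cre by 1.21 (SE 0.43, FDR 0.0757) in CD4NIKΔ and by −2.69 (SE 1.26, FDR 0.351) in CD4IKK1Δ libraries, neither past the threshold, and by −3.90 (SE 1.11, FDR 0.0184) between the deletions. Without CD4cre replicate 1 the first of these was 1.81 (FDR 0.0199, over the alternatives from 0.0174 to 0.999) and called. *Il21r*, which binds IL-21, had 65.1, 34.5 and 31.6 CPM in CD4cre, 0.640, 2.72, 16.6, 13.3 and 11.4 CPM in CD4IKK1Δ and 175, 214 and 253 CPM in CD4NIKΔ libraries. As for *Il2rb*, no library of 1 group lay within the range of another. It differed from CD4cre by 2.27 (SE 0.31, FDR 0.00484) in CD4NIKΔ and by −2.29 (SE 0.81, FDR 0.221) in CD4IKK1Δ libraries, and by −4.58 (SE 0.78, FDR 0.00125) between the deletions.

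*Il4ra*, the chain that binds IL-4 and, with another partner, IL-13, had 167, 103 and 67.9 CPM in CD4cre, 0.320, 7.07, 14.8, 36.9 and 30.6 CPM in CD4IKK1Δ and 107, 130 and 159 CPM in CD4NIKΔ libraries. It was the member of the γ chain family with the smallest difference between CD4NIKΔ and CD4cre, 0.21 (SE 0.32, 95% interval from −0.52 to 0.94, FDR 0.663), and the CD4NIKΔ libraries lay inside the range of CD4cre. Against CD4cre the CD4IKK1Δ libraries, all lower, gave −2.64 (SE 1.06, FDR 0.284), and against CD4NIKΔ −2.87 (SE 0.91, FDR 0.0300). The last call was lost without any 1 of 5 libraries, CD4IKK1Δ replicates 2 or 3 or any CD4NIKΔ replicate (FDR from 0.0533 to 0.0947). *Il21r*, the neighbour of *Il4ra* on chromosome 7, was called higher in CD4NIKΔ than in CD4cre libraries, and *Il4ra* was not called. The difference between these 2 changes was not tested.

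Of the chains around gp130, *Il27ra*, the specific chain of the IL-27 receptor, had 18.5, 24.5 and 14.0 CPM in CD4cre, 0.832, 1.78, 26.8, 10.7 and 1.35 CPM in CD4IKK1Δ and 133, 341 and 266 CPM in CD4NIKΔ libraries. The lowest CD4NIKΔ library was above the highest of the others, while CD4IKK1Δ replicate 3 was above all CD4cre libraries and the other 4 were below them. *Il27ra* rose by 3.68 (SE 0.38, FDR 0.00234) in CD4NIKΔ libraries, the largest difference from CD4cre among the members, and differed by −1.20 (SE 1.03, FDR 0.634) in CD4IKK1Δ libraries and by −4.90 (SE 1.05, FDR 0.00460) between the deletions. Without CD4IKK1Δ replicate 3 the last 2 differences were −2.37 (FDR 0.202) and −6.06 (FDR 0.000978). *Il6ra*, which binds IL-6, had 26.4, 17.4 and 14.2 CPM in CD4cre, 3.20, 3.93, 4.37, 19.5 and 8.86 CPM in CD4IKK1Δ and 15.5, 38.5 and 43.8 CPM in CD4NIKΔ libraries. Its groups overlapped in every comparison. The fit gave 0.73 (SE 0.42, FDR 0.240) for CD4NIKΔ and −1.27 (SE 0.57, FDR 0.300) for CD4IKK1Δ against CD4cre, and −2.02 (SE 0.56, FDR 0.0116) between the deletions, a call that was lost without CD4NIKΔ replicate 3 (−1.75, FDR 0.0548, over the alternatives from 0.00114 to 1). The call was also lost without the 2 CD4IKK1Δ libraries low in T cell receptor counts (−1.56, FDR 0.0510). Without CD4IKK1Δ replicate 4, *Il6ra* differed in CD4IKK1Δ libraries by −1.92 (FDR 0.126) from CD4cre and by −2.67 (FDR 0.00114) from CD4NIKΔ.

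The shared chain *Il6st*, which many cell types express, had 8.47, 17.4 and 6.61 CPM in CD4cre, 12.5, 14.3, 15.1, 6.70 and 8.45 CPM in CD4IKK1Δ and 4.35, 13.0 and 19.2 CPM in CD4NIKΔ libraries. The ranges of the 3 groups overlapped widely, although the libraries differed widely in T cell transcripts. The differences were 0.08 (SE 0.43, FDR 0.965), 0.15 (SE 0.59, FDR 0.875) and −0.09 (SE 0.49, FDR 0.901) for CD4IKK1Δ and CD4NIKΔ against CD4cre and between the deletions. Their 95% intervals, from −0.87 to 1.02, from −1.19 to 1.49 and from −1.16 to 0.98, give the precision that these libraries allow.

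*Il10ra*, the ligand-binding chain of the IL-10 receptor, had 15.3, 27.3 and 23.3 CPM in CD4cre and 0.0640, 0, 0.113, 6.65 and 0.764 CPM in CD4IKK1Δ libraries, which are 1, 0, 2, 134 and 17 counts, so that 3 of these 5 libraries were at or under the floor. The CD4NIKΔ libraries had 1.39, 21.9 and 8.32 CPM. *Il10ra* was the only member with a fitted difference below 0 between CD4NIKΔ and CD4cre libraries, and their ranges overlapped. The difference was −1.09 (SE 0.77, FDR 0.336) for CD4NIKΔ and −3.83 (SE 1.47, FDR 0.252) for CD4IKK1Δ against CD4cre, and −2.78 (SE 1.39, FDR 0.138) between the deletions, none of which was called. The first was −2.17 without CD4NIKΔ replicate 2 and −0.54 without replicate 1, and the last was −1.66 without CD4NIKΔ replicate 2. Without CD4IKK1Δ replicate 4 the last was called (FDR 0.00357, over the alternatives from 0.00357 to 1) and the difference from CD4cre was not (FDR 0.0515). No fold is given for these, because 3 of the 4 CD4IKK1Δ libraries left were at or under the floor.

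**Figure D2:**
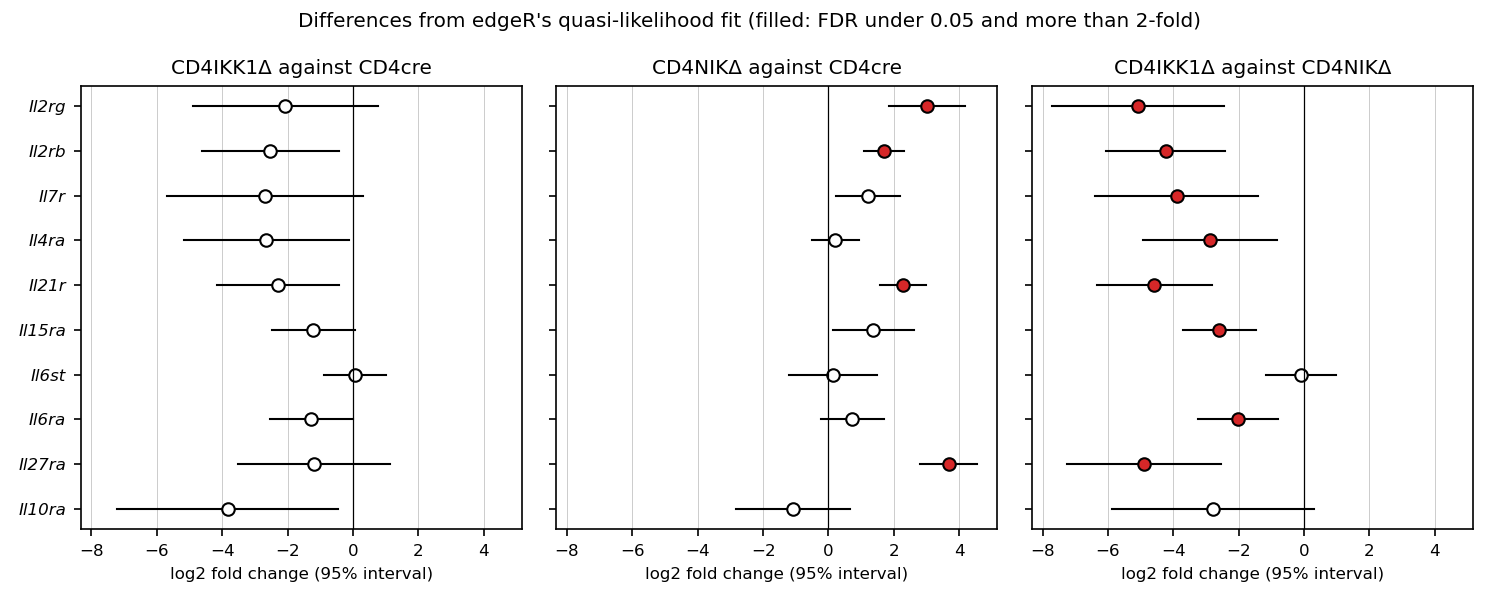
Difference of each receptor chain in the 3 comparisons, as log2 fold change (x axis) with its 95% interval from edgeR's quasi-likelihood fit and filled points for calls at an FDR under 0.05 and more than 2-fold. No point is filled for CD4IKK1Δ against CD4cre, 4 are filled above 0 for CD4NIKΔ against CD4cre and 8 below 0 for CD4IKK1Δ against CD4NIKΔ.

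Read against all genes, the counts stood as follows. For CD4NIKΔ against CD4cre, 4 of 10 members were called higher, beside 10.4% of all 15209 genes tested, and 4 of 10 had all CD4NIKΔ libraries above all CD4cre libraries, beside 23% of all genes. The median of the members was 1.29 on the log2 scale and that of all genes −0.02. For CD4IKK1Δ against CD4cre, 0 of 10 members and 0% of all 15653 genes were called, at a smallest FDR of 0.0543. The count over all genes depended on the fit, with 129 called when all 11 libraries entered it, 159 and 48 with filters of 10 counts in every and 1 count in any library, and 23 without CD4IKK1Δ replicate 4, while that of the members was 0 in each. The 5 members with an unadjusted p under 0.05 (*Il2rb*, *Il4ra*, *Il21r*, *Il6ra* and *Il10ra*) were all lower, beside 8.91% of all genes lower at that p, and 5 of 10 members had all CD4IKK1Δ libraries below all CD4cre libraries, beside 8.44% of all genes. The medians were −2.18 and 0.02. For CD4IKK1Δ against CD4NIKΔ, 8 of 10 members were called lower, beside 18.5% of all 16546 genes tested, and 7 of 10 did not overlap, beside 24.6%, with medians of −3.38 and 0.06. The 15 Pan T markers had medians of 2.00, −2.04 and −4.07 in the same comparisons, with 12, 0 and 14 called.

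The calls depended on the fit. In CD4NIKΔ against CD4cre no member was called when the CD4IKK1Δ libraries also entered the fit, although the fold changes were nearly the same (3.03 with an FDR of 0.147 for *Il2rg* and 3.70 with an FDR of 0.0654 for *Il27ra*). In CD4IKK1Δ against CD4cre, DESeq2 called 1 member, *Il21r* (−2.30, adjusted p 0.0249, over the alternatives from 0.0249 to 0.983), beside 2.98% of all genes called lower, and without the 2 libraries that had under 1000 T cell receptor counts edgeR called *Il2rb* (−1.93, FDR 0.0382, over the alternatives from 0.0147 to 0.983), beside 0.239% of all genes. In CD4IKK1Δ against CD4NIKΔ 7 members were called with only the 8 libraries of the comparison, beside 5281 of all genes against 5512 in the fit reported. There *Il4ra* was lost (−2.87, FDR 0.0538), and it was also lost when genes with at least 1 count in any library were kept (−2.87, FDR 0.0621). Without the 2 libraries that had under 1000 T cell receptor counts, 7 members were called lower, beside 17.1% of all genes, and *Il6ra* was lost (−1.56, FDR 0.0510).

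The members were also set against T cell transcripts, by scaling each library to its Pan T markers instead of to all genes. For CD4NIKΔ against CD4cre this moved the median of all genes to −2.34, and 66.3% of all genes were called lower. On this scale *Il27ra* was at 1.32 (adjusted p 0.0577), *Il2rg* at 0.82 (adjusted p 0.231) and *Il21r* at 0.07 (adjusted p 0.926), which did not pass the test, and 4 chains were called lower, as most genes were. *Il10ra* fell by 3.69 (adjusted p 6.38e-05 from edgeR's quasi-likelihood test), *Il6st* by 2.26 (adjusted p 0.00630), *Il4ra* by 1.95 (adjusted p 0.00676) and *Il6ra* by 1.59 (adjusted p 0.0326). For these 4 chains the adjusted p was the smallest over the alternatives, which reached 0.999. *Il6st*, *Il4ra* and *Il6ra* lay above the median of all genes, so that their values do not exceed the shift of the scale, and no difference between chains was tested. Relative to the median of all genes, *Il10ra* was the only 1 of the 10 members below it (by −1.35), and *Il27ra* was the farthest above it (by 3.66). Within single libraries, log2 CPM of *Il10ra* minus the Pan T score (the mean log2 CPM of the 15 markers) was −2.67 to −1.28 in CD4cre and −7.21 to −3.98 in CD4NIKΔ libraries. The same difference for *Il4ra* was 0.26 to 0.77 in CD4cre and −1.42 to −1.06 in CD4NIKΔ libraries, and for *Il27ra* −2.40 to −1.54 and −0.74 to −0.03. How many of all genes lie apart on this scale was not counted, and most were called lower on it. For *Il2rb* it stayed within 0.46 to 1.59 over all 11 libraries.

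For CD4IKK1Δ against CD4cre no member was called on the Pan T scale (adjusted p from 0.0729 to 0.980), at a median of all genes of 5.36, and none after the 2 libraries low in T cell receptor counts were also left out (chosen after seeing the data), beside 0% and 0.179% of all genes called in either direction. The γ chain family members *Il2rg*, *Il2rb*, *Il7r*, *Il4ra*, *Il21r* and *Il15ra* were then at 0.63, −0.46, 0.02, −0.15, −0.07 and 0.50, where a median of all genes of 1.51 marks the shift of the scale. A p that misses the threshold does not show that they did not differ. Between the deletions, *Il6st*, *Il15ra* and *Il6ra* were called higher in CD4IKK1Δ on the Pan T scale (8.03, 5.66 and 4.74), where 85.9% of all genes were called higher at a median of 7.64. Without the 2 libraries the 3 called higher were *Il6st*, *Il6ra* and *Il4ra* (3.60, 2.60 and 1.80), beside 80.1% of all genes.

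**Figure D3:**
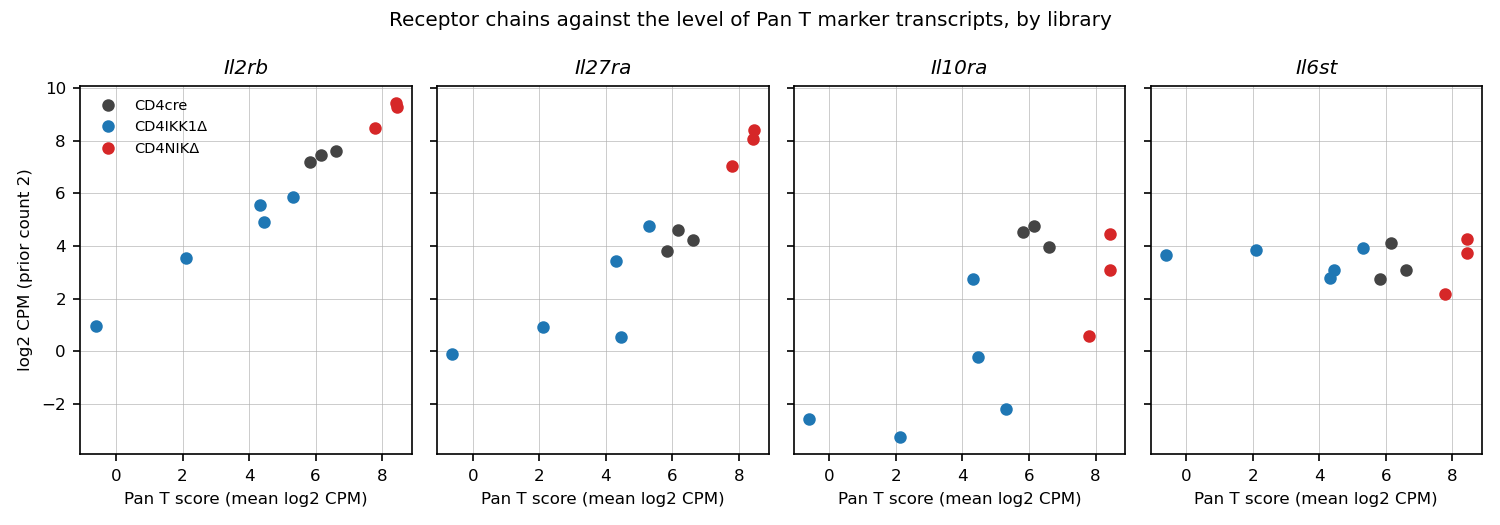
Log2 CPM (prior count 2) of *Il2rb*, *Il27ra*, *Il10ra* and *Il6st* against the Pan T score (mean log2 CPM of 15 markers) in the 11 libraries, coloured by group. *Il2rb* follows the score over the whole range, *Il10ra* is lower in CD4NIKΔ than in CD4cre libraries relative to the score, and *Il6st* has no trend with it.

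Across the 11 libraries, Pearson's r of log2 CPM with the Pan T score was 0.993 for *Il2rb*, 0.991 for *Il21r*, 0.939 for *Il4ra*, 0.935 for *Il2rg*, 0.921 for *Il7r*, 0.906 for *Il27ra*, 0.841 for *Il6ra*, 0.696 for *Il10ra*, 0.639 for *Il15ra* and −0.09 for *Il6st*. These coefficients describe libraries that fall into 3 groups and share depth and composition, and they are given without a test. After the group means were subtracted, *Il21r* (0.988) and *Il2rb* (0.985) still followed the score closely, and *Il15ra* (−0.20) and *Il6st* (−0.06) did not. Among the members, *Il2rb* and *Il21r* were most alike (r = 0.989). *Il2rg* was most like *Il21r* (0.953), *Il7r* and *Il4ra* were most like each other (0.947), *Il27ra* was most like *Il21r* (0.926), *Il6ra* like *Il7r* (0.913), *Il10ra* like *Il6ra* (0.877) and *Il15ra* like *Il6ra* (0.818). For *Il6st* the highest coefficient with any other member was 0.0502. Of 16536 genes outside the list, those most like the mean of the members over the 11 libraries were *Trgc1* (r = 0.990), *1700017B05Rik* (0.988), *Trgc2* (0.987), *Trbv1* (0.985) and *Junb* (0.984). *Trgc1*, *Trgc2* and *Trbv1* are T cell receptor gene segments, of which the γ constant regions are similar enough in sequence for reads to be divided between them, and *Junb* encodes a subunit of the AP-1 transcription factor.

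Levels of different chains were compared as CPM per kb of the median annotated transcript. In CD4cre libraries *Il7r* had the highest level (61.4 ± 37.0 CPM per kb, SD, n = 3), then *Il2rb* (43.3 ± 6.42), *Il4ra* (23.9 ± 10.7), *Il2rg* (23.0 ± 13.4), *Il21r* (17.4 ± 7.41), *Il27ra* (7.54 ± 2.09), *Il10ra* (6.34 ± 1.76), *Il15ra* (5.45 ± 3.34), *Il6ra* (3.39 ± 1.11) and *Il6st* (2.03 ± 1.08). The ranges of neighbours in this order overlapped except between *Il2rb* and *Il4ra* and between *Il21r* and *Il27ra*. In CD4NIKΔ libraries *Il2rg* came first by the mean (188 ± 108 CPM per kb, SD, n = 3), followed by *Il7r* (142 ± 49.4), *Il2rb* (141 ± 45.3), *Il27ra* (97.9 ± 41.9), *Il21r* (85.3 ± 15.5), *Il4ra* (28.0 ± 5.61), *Il15ra* (14.3 ± 6.18), *Il6ra* (5.72 ± 2.65), *Il10ra* (3.04 ± 3.01) and *Il6st* (2.29 ± 1.40). The first place rested on replicate 2, since *Il2rg* was above *Il7r* in 1 of 3 libraries and the medians were 154 for *Il2rg*, 157 for *Il2rb* and 164 for *Il7r*. The first 5 and the last 3 overlapped with their neighbours, and *Il21r* and *Il4ra*, *Il4ra* and *Il15ra*, and *Il15ra* and *Il6ra* did not. In CD4IKK1Δ libraries the mean levels ran from 9.49 ± 10.9 CPM per kb (SD, n = 5) for *Il7r* to 0.439 ± 0.833 for *Il10ra*, and all neighbours overlapped. By the median *Il2rb* was first (7.60) and *Il7r* (3.02) came after *Il21r* (4.54), *Il2rg* (3.57) and *Il4ra* (3.15), and *Il7r* was above *Il2rb* in 2 of 5 libraries. The order depended on the length used. With the longest transcript of each gene, *Il2rb* came before *Il7r* in CD4IKK1Δ (7.10 against 6.79 CPM per kb) and CD4NIKΔ libraries (134 against 102), and *Il2rg* before *Il4ra* in CD4cre libraries (19.3 against 18.4).

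Because a receptor needs both of its chains, ratios of CPM per kb were taken within each library. These ratios carry no call beyond those of the single chains. *Il2rg* was called higher in CD4NIKΔ libraries (8.06-fold), *Il7r* and *Il4ra* were not called, and neither had a fitted difference below 0. *Il7r* over *Il2rg* was 2.61 to 2.70 in the 3 CD4cre and 0.278 to 1.74 in the 3 CD4NIKΔ libraries, and *Il4ra* over *Il2rg* was 0.922 to 1.33 and 0.0890 to 0.222, without overlap. *Il2rb* over *Il2rg* was 1.28 to 2.70 and 0.509 to 1.14, also without overlap, while the ranges of *Il21r* over *Il2rg*, 0.675 to 0.882 and 0.275 to 0.686, overlapped. *Il27ra* over its partner *Il6st* was 2.98 to 4.62 in CD4cre, 0.140 to 3.75 in CD4IKK1Δ and 29.3 to 64.5 in CD4NIKΔ libraries, while *Il6ra* over *Il6st* was 0.937 to 2.91, 0.238 to 2.72 and 2.13 to 3.32. *Il10ra* over *Il2rg*, which are not partners, was 0.115 to 0.482 in CD4cre and 0.00395 to 0.0204 in CD4NIKΔ libraries. Ratios in the CD4IKK1Δ libraries spread too widely to place them, such as 0.848 to 8.15 for *Il7r* over *Il2rg*. With 3 libraries against 3, an exact permutation test of such a ratio cannot reach a p under 0.05, and none was made.

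**Figure D4:**
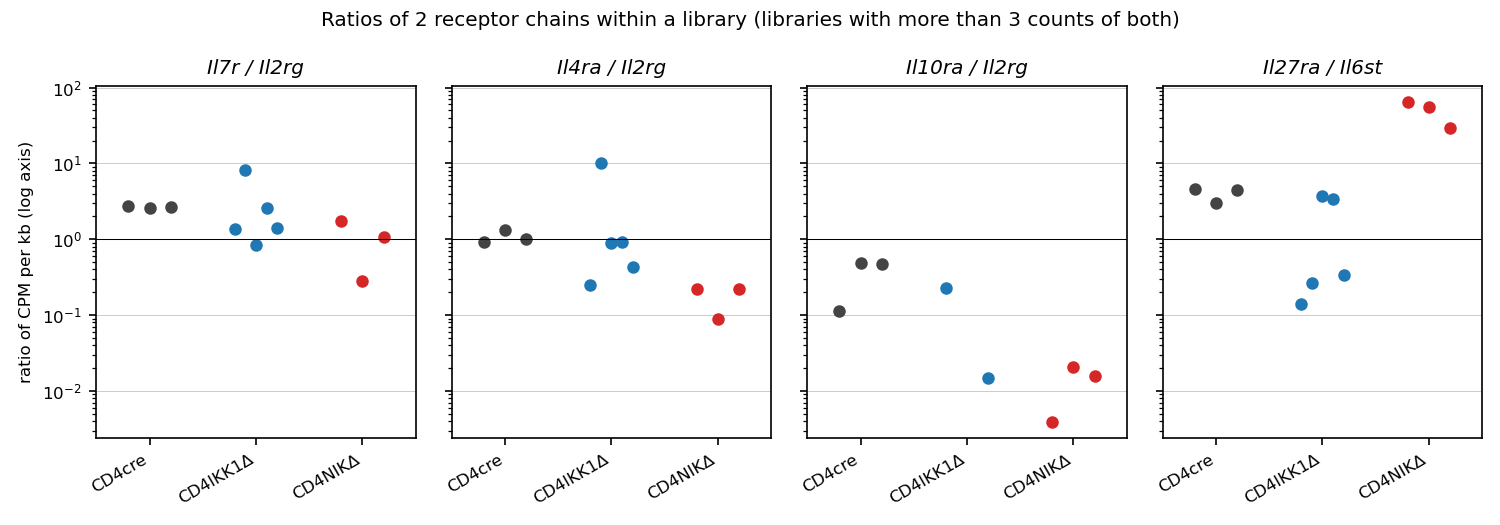
Ratio of the levels of 2 receptor chains (CPM per kb, log axis) within each library that had more than 3 counts of both, by group, with a line at 1. *Il7r* and *Il4ra* relative to *Il2rg* are lower in CD4NIKΔ than in CD4cre libraries, where *Il2rg* was called higher and neither *Il7r* nor *Il4ra* was called lower, *Il10ra* relative to *Il2rg* is lowest in CD4NIKΔ replicate 1, and *Il27ra* relative to *Il6st* is at 29.3 or more in all CD4NIKΔ libraries.

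A list of 33 other cytokine receptor chains was also counted. Of the 31 tested for CD4NIKΔ against CD4cre, 11 were called higher, beside the 10.4% of all genes, and 1 lower (median 1.23), and of the 32 tested for CD4IKK1Δ against CD4NIKΔ, 12 were called lower, beside 18.5% of all genes, and none higher (median −1.70). None of 30 was called for CD4IKK1Δ against CD4cre (4 lower at an unadjusted p under 0.05, near the 8.91% of all genes, median −0.42). *Il2ra*, the α chain that gives the IL-2 receptor its high affinity, had 12.5 ± 1.34 CPM (SD, n = 3) in CD4cre, 0.997 ± 0.633 (SD, n = 5) in CD4IKK1Δ and 32.0 ± 11.7 (SD, n = 3) in CD4NIKΔ libraries. Its difference of −3.64 (SE 0.62, FDR 0.0551) from CD4cre in CD4IKK1Δ libraries was near the threshold without passing it, and it was −5.00 (SE 0.54, FDR 7.40e-05) between the deletions. *Il12rb1*, shared by the receptors for IL-12 and IL-23, rose by 2.77 (SE 0.43, FDR 0.00752) in CD4NIKΔ against CD4cre, and *Il18r1*, which binds IL-18, by 2.19 (SE 0.40, FDR 0.0118). *Il23r* had 3.29 to 20.2 CPM in CD4NIKΔ libraries and was at or under the floor in all CD4cre and CD4IKK1Δ libraries, so that no fold is given. *Ifnar2*, a chain of the type I interferon receptor, and *Il18r1* differed from CD4cre by −0.94 (SE 0.22, FDR 0.0938) and −1.95 (SE 0.52, FDR 0.123) in CD4IKK1Δ libraries, and from CD4NIKΔ by −2.10 (SE 0.23, FDR 7.64e-05) and −4.15 (SE 0.47, FDR 8.82e-05).

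Among the 17 ligands of these receptors, 12 were tested for CD4NIKΔ against CD4cre and 5 were called higher, beside 10.4% of all genes. *Il2*, the growth factor of activated T cells, rose from 1.48 ± 0.931 CPM (SD, n = 3) in CD4cre to 23.4 ± 12.3 CPM (SD, n = 3) in CD4NIKΔ libraries (3.96, SE 0.62, FDR 0.00771), and *Ebi3*, a subunit of IL-27, rose by 1.51 (SE 0.37, FDR 0.0266). *Il15* was at 2.70 to 5.36 CPM in CD4NIKΔ and 0.292 to 0.847 CPM in CD4cre libraries (2.60, SE 0.74, FDR 0.0408), and at or under the floor in all CD4IKK1Δ libraries. Of the 11 ligands tested for CD4IKK1Δ against CD4cre none was called, the 3 with the smallest p being *Il4* (−1.95, SE 0.55, FDR 0.138), *Il21* (−2.54, SE 1.03, FDR 0.254) and *Osm* (−2.89, SE 1.23, FDR 0.278). Of the 12 tested between the deletions 9 were called lower in CD4IKK1Δ, beside 18.5% of all genes, with *Il21* at −4.58 (SE 0.81, FDR 0.000817). *Il21* and *Osm* were each at or under the floor in 2 of the 5 CD4IKK1Δ libraries, so that the size of their differences there is uncertain. *Il2* was also called, and no fold is given, because 4 of the 5 CD4IKK1Δ libraries were at or under the floor and the highest had 1.64 CPM.

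The list of JAK kinases, STAT factors and feedback genes held 21 genes. In CD4NIKΔ against CD4cre, 9 of 20 tested were called higher, beside 10.4% of all genes, and none lower, among them *Cish*, an inhibitor that STAT5 induces, with 422 ± 70.8 against 114 ± 9.31 CPM (SD, n = 3 each) and a difference of 1.87 (SE 0.20, FDR 0.00230), and *Stat4*, which IL-12 activates (2.64, SE 0.41, FDR 0.00752). In CD4IKK1Δ against CD4cre none of 20 was called, and 12 were lower, beside 8.91% of all genes, and 2 higher at an unadjusted p under 0.05. *Stat5a*, *Stat5b* and *Stat2* had the smallest p there (−2.47, −1.25 and −1.46, with an FDR of 0.0898, 0.111 and 0.154). Between the deletions 18 of 21 were called lower in CD4IKK1Δ, beside 18.5% of all genes, such as *Jak1* (−2.71, SE 0.34, FDR 0.000134) and *Stat5a* (−3.37, SE 0.47, FDR 0.000223), and 1, *Socs7*, was called higher (1.38, SE 0.20, FDR 0.000248). The medians of this list were 1.34, −1.31 and −2.92 in the 3 comparisons, beside −0.02, 0.02 and 0.06 over all genes.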

How the data were processed

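The 11 libraries of renal CD4+ T cells were grouped by the genotype in the sample titles, with replicates as separate biological samples. The authors trimmed reads with Trimmomatic, quantified transcripts with kallisto and deposited estimated counts by gene symbol, 1 column per library, not normalized. The paper names GRCm39 and the submitters' processing notes name mm10, and the version of kallisto is not given in the sources used here. The members and lists were chosen with earlier results of these data known. Estimated counts were rounded, filtered by expression and scaled by TMM, with factors computed anew for the genes and libraries of each fit. The robust quasi-likelihood F test of edgeR 4.0.16 (limma 3.58.1, R 4.3.3) was used with Benjamini-Hochberg adjustment. Each comparison with CD4cre used its own libraries, and the comparison of both deletions used all 11. The test was checked on simulated data. DESeq2 1.42.0 and other scalings, filters, covariates and sets of libraries were alternatives. CPM used TMM factors from all genes and all 11 libraries, which lay between 0.9006 and 1.051. The genes named outside the 10 members are, per list and comparison, the 3 with the smallest p, and the 5 most like the members' mean. A gene that this rule selects is not reported here. Of the symbols, 33508 (93.6%) matched GENCODE release M39, which gave lengths and GRCm39 coordinates. Promoters are on another build, and the coordinates were not converted. No 2 of the 55 pairs of libraries were identical. Replicate numbers did not pair the libraries. The floor of 3 counts covers counting error only, because the amplified reads carry no molecular identifiers. Protein sequences were not used here.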

Additional observations from a re-analysis of the deposited data

Results flagged for a closer look

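In CD4IKK1Δ replicate 4, *Il10ra* had 6.65 CPM and lay apart from the other 4 CD4IKK1Δ libraries, with a gap to the nearest of 0.885 of the group's range, above Dixon's 95% critical value of 0.71. It was the only 1 of 10 such groups of values tested that did so, and chance flags about 1 in 20 where values are normally distributed. The test was made on CPM and not on log2 CPM, and 3 of the 5 values of *Il10ra* were at or under the floor, so that the flag may depend on the scale. The test that compared the effects of both deletions gave a difference in 8 chains, beside 18.5% of all genes called lower, with log2 fold changes (CD4IKK1Δ minus CD4NIKΔ) of −5.09 for *Il2rg*, −4.90 for *Il27ra*, −4.58 for *Il21r*, −4.23 for *Il2rb*, −3.90 for *Il7r*, −2.87 for *Il4ra*, −2.59 for *Il15ra* and −2.02 for *Il6ra*. The Pan T markers differed in the same direction (median −4.07, 14 of 15 called lower), and, against the same share, so did the NK cell (median −4.15, 3 of 3 tested), tubule (−4.04, 3 of 7) and myeloid markers (−1.94, 5 of 8). Their part in these differences was not tested.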

How the results depend on the processing

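The number of members called was 0 for CD4IKK1Δ against CD4cre, 4 for CD4NIKΔ against CD4cre and 8 for CD4IKK1Δ against CD4NIKΔ, and RLE, upper-quartile or no normalization factors, a fit that is not robust and no fold threshold left these 3 counts as they were. A filter of 1 count in any library gave 0, 4 and 7 members, and one of 10 counts in every library 0 of the 7, 5 of the 10 and 6 of the 7 that it kept, with *Il7r* gained in CD4NIKΔ against CD4cre (1.22, FDR 0.0400). Of all genes, 48, 2897 and 5227 were called with the first filter and 159, 3005 and 4489 with the second. The upper quartile moved the median of all genes to 0.11, −0.16 and 0.30 in these comparisons, and library size alone to −0.0090, −0.15 and 0.16. In CD4IKK1Δ against CD4cre, DESeq2 called 1 member and, with all 11 libraries, 3, and edgeR called 1 without the libraries low in T cell receptor counts, where 547, 706 and 36 of all genes were called, against 0. In CD4NIKΔ against CD4cre, DESeq2 called 6 and, with all 11 libraries, 3, and no member was called (0) with the non-T-cell score or the Pan T score as a covariate or with all 11 libraries in the fit. Of all genes, DESeq2 called 3847 and 2892 there, against 2649 in the fit reported, and 0, 0 and 2129 were called in the last 3 fits. In CD4IKK1Δ against CD4NIKΔ, 0 were called with either covariate, beside 0 of all genes with the non-T-cell score and 726 with the Pan T score. The non-T-cell score is the mean log2 CPM of the myeloid, B cell, tubule, endothelial, neuronal and glial markers. Its lists did not move together, since in CD4IKK1Δ libraries the neuronal sums were the highest (1795 to 2158 CPM) and the myeloid and tubule sums the lowest of the 3 groups. Each score separates the 3 groups without overlap (the non-T-cell score was 2.17 to 2.23 in CD4cre, 1.21 to 1.47 in CD4IKK1Δ and 2.38 to 2.51 in CD4NIKΔ libraries), so that score and genotype cannot be told apart in these fits, their fold changes are extrapolations, and nothing is read from the lost calls. The cause of these changes was not tested. Scaling to Pan T markers turned the direction, with 4 members called lower in CD4NIKΔ against CD4cre and 3 higher in CD4IKK1Δ against CD4NIKΔ, also 3 without the libraries low in T cell receptor counts, where the medians of all genes were −2.34, 7.64 and 3.84. Leaving out 1 library at a time gave 0 to 0, 4 to 5 and 5 to 9 members called in the 3 comparisons, beside 0 to 23, 674 to 3468 and 4116 to 5556 of all genes. For CD4NIKΔ against CD4cre the all-gene count of 2649 was 1001 and 859 without CD4cre replicates 2 and 3, and 918 and 674 without CD4NIKΔ replicates 2 and 3, so that the share of all genes set beside the members there rests on single libraries. The fewest members in the last comparison were called without CD4NIKΔ replicate 3, where *Il7r* (−3.78, FDR 0.0591), *Il4ra* and *Il6ra* were lost, and *Il7r* was also lost without CD4NIKΔ replicate 1 (−3.72, FDR 0.0557). *Il6ra* was called in CD4NIKΔ against CD4cre without CD4NIKΔ replicate 1 (1.10, FDR 0.0408). *Il6st* changed sign in these fits, with ranges from −0.18 to 0.60, −0.31 to 0.70 and −0.50 to 0.39, and so did *Il4ra* in CD4NIKΔ against CD4cre (−0.021 to 0.61). The replicate numbers of the labels did not pair the libraries (r of deviations from −0.089 to 0.077 over 9 same-numbered pairs), and with the replicate block 0, 4 and 9 members were called, beside 3, 1185 and 4994 of all genes, against 0, 2649 and 5512 without it. The chain gained was *Il10ra* between the deletions (FDR 0.00411). No fold is given for it, because the CD4IKK1Δ libraries that share a replicate number with the other groups held 1, 0 and 2 counts, at or under the floor.

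Values that turned direction were as follows, as log2 fold changes. Those from a fit with a covariate are extrapolations, because each score separates the groups, and no direction is read from them. For CD4IKK1Δ against CD4cre, scaling to Pan T markers gave 0.57 for *Il2rg*, 0.06 for *Il2rb*, 0.44 for *Il21r*, 4.68 for *Il15ra*, 3.16 for *Il6ra* and 1.52 for *Il27ra*, and leaving out the libraries low in T cell receptor counts as well gave 0.63 for *Il2rg*, 0.022 for *Il7r*, 0.50 for *Il15ra*, 1.01 for *Il6ra* and 0.56 for *Il27ra*. Leaving out those libraries alone gave −0.10 for *Il6st*. The Pan T covariate gave −0.061 for *Il6st*, 0.37 for *Il2rg* and 0.40 for *Il27ra*. The non-T-cell covariate gave −0.35 for *Il6st*, 0.81 for *Il6ra*, 8.09 for *Il2rg*, 8.93 for *Il2rb*, 8.40 for *Il7r*, 10.87 for *Il4ra*, 8.59 for *Il21r* and 7.58 for *Il27ra*. For CD4NIKΔ against CD4cre, scaling to Pan T markers gave −0.67 for *Il2rb*, −0.82 for *Il7r*, −1.95 for *Il4ra*, −0.98 for *Il15ra*, −2.26 for *Il6st* and −1.59 for *Il6ra*. The Pan T covariate gave −0.65 for *Il2rg*, −0.16 for *Il2rb*, −2.03 for *Il4ra*, −1.24 for *Il15ra*, −3.33 for *Il6st* and −2.56 for *Il6ra*, and the non-T-cell covariate −0.33 for *Il4ra*, −0.52 for *Il15ra*, −1.04 for *Il6st* and −0.32 for *Il6ra*. For CD4IKK1Δ against CD4NIKΔ, scaling to Pan T markers gave 0.72 for *Il2rb*, 0.75 for *Il7r*, 1.69 for *Il4ra*, 0.36 for *Il21r*, 5.66 for *Il15ra*, 8.03 for *Il6st*, 4.74 for *Il6ra*, 0.18 for *Il27ra* and 2.01 for *Il10ra*, and without the libraries low in T cell receptor counts 0.21 for *Il2rb*, 0.84 for *Il7r*, 1.80 for *Il4ra*, 1.48 for *Il15ra*, 3.60 for *Il6st*, 2.60 for *Il6ra* and 2.24 for *Il10ra*. The Pan T covariate gave 0.37 for *Il7r*, 1.52 for *Il4ra* and 2.31 for *Il10ra*. The non-T-cell covariate gave 5.18 for *Il2rb*, 3.09 for *Il7r*, 6.43 for *Il4ra*, 3.26 for *Il21r*, 1.54 for *Il6st*, 1.74 for *Il6ra* and 0.69 for *Il27ra*. *Il6st* was at 0.032 by library size alone, 0.13 by the upper quartile and 0.35 with the replicate block. The depth limits *Il10ra* in the CD4IKK1Δ libraries, where 3 of 5 held at most 3 counts.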
